A study of Mus musculus with 14 samples.

Results

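Collagen chains, laminin chains and 9 further genes of the extracellular matrix were followed across GFP+CD11b+ myeloid cells from brain metastases (BrM), spleen and bone marrow of mice. The members were chosen by gene symbol: every collagen chain (Col, a number, a and a number), every laminin chain (Lama, Lamb or Lamc with a number), and Mgp, Bgn, Dcn, Lum, Sparc, Fn1, Fbn1, Nid1 and Postn. Of 19057 genes named on the array, 58 were members: 41 collagen chains, 9 laminin chains and 8 of the 9 genes listed by name, since Fbn1 had no probe of that symbol here. The members had 130 probes, and each of the 37 with several is given by the probe with the highest mean over the 14 arrays.

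The arrays held 4 PyMT-Br and 2 EO771-Br samples, from intracranial tumors of the murine breast cancer cell lines PyMT and EO771. Controls were 3 spleens (PyMT-S) and 1 bone marrow (PyMT-BM) of PyMT tumor-bearing mice, and 2 spleens (naïve-S) and 2 bone marrow samples (naïve-BM) of mice without tumors, which stood in for the EO771 model because viable control cells could not be isolated from it. All mice were C57Bl/6J, aged 14 weeks, irradiated and reconstituted with hematopoietic stem cells (HSC) from donors that express GFP from the ubiquitin C promoter, and tumors grew for about 2 weeks. Cancer model, tumor status of the control mice and mouse set therefore cannot be told apart between PyMT and EO771. The sorted population is bulk: more cells of a type and more RNA per cell cannot be told apart.

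The extracellular matrix falls into interstitial matrix, built on fibrillar collagens and fibronectin, and basement membrane, a sheet of laminin and collagen IV networks joined by nidogen and perlecan. In brain, basement membrane lies mainly around blood vessels and under the meninges, and interstitial collagen is sparse outside vessels and meninges. Fibroblasts, endothelial cells, pericytes and carcinoma cells are the usual producers, whereas macrophages are known for fibronectin and for taking up and degrading collagen.

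Values are log2 signals after quantile normalization by the authors, so 1 unit is a 2-fold difference, and precision is set by how few arrays there were. The median signal of an array was 4.06, and 14 of the 58 members lay below it in the mean of all 6 conditions (4420 of 19057 genes). A difference near that level is limited by background, and levels of different probes are not compared. Itgam, which encodes the CD11b of the sort, had 7.29 to 7.94 in BrM and 5.74 to 8.87 in the other arrays. The library labelled PyMT-S 2 went against its label: its correlation over all probes was 0.937 to 0.950 with the bone marrow arrays and 0.899 to 0.907 with the other spleens. Another library stood apart among controls, PyMT-S 3, whose mean over 20 endothelial markers was 6.09, against 4.94 to 5.42 in the other 7 control arrays. Counts are given with and without them. Markers of macrophages were called higher in BrM for 8 of 13 genes, and those of neutrophils lower for 12 of 14. Over all genes 4.89% were called higher and 4.13% lower, all in the comparison of both models pooled. For PyMT alone 4 macrophage markers were higher and 0 lower, against 3.77% and 2.42% of all genes. For EO771 alone 3 were higher and 1 lower, against 2.59% and 1.68%. The macrophage marker Cd163 was 4.15 and 3.37 in EO771-Br, against 8.77 to 11.62 in the naïve arrays. The mean over the neutrophil list was 6.83 to 9.25 in BrM, highest in PyMT-Br 3, against 11.48 to 12.78 in the other arrays. Between PyMT-Br and EO771-Br limma called 0 genes of either list, against 0.819% of all genes higher and 1.12% lower. At an unadjusted p under 0.05, 2 were higher and 2 lower for macrophages, and 7 higher and 1 lower for neutrophils. No share of all genes is given at that cutoff. The neutrophil mean was 7.03 to 9.25 in PyMT-Br and 6.83 to 7.10 in EO771-Br. The part of these markers in the results was not tested.

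The genes Col4a1 and Col4a2 encode the 2 chains of the common collagen IV network and lie head to head on mouse chromosome 8, at chr8:11198423-11312889 on the minus strand and chr8:11312805-11449287 on the plus strand (GRCm38.p6). Their promoters are shown because the pair stands on one short stretch of DNA and both were higher in BrM. Each window runs from 250 bases before to 50 after a transcript start in RefSeq, and the 78 bases in capitals, chr8:11312777-11312854, belong to both windows on opposite strands.
Col4a1, chr8:11312777-11313076, minus strand: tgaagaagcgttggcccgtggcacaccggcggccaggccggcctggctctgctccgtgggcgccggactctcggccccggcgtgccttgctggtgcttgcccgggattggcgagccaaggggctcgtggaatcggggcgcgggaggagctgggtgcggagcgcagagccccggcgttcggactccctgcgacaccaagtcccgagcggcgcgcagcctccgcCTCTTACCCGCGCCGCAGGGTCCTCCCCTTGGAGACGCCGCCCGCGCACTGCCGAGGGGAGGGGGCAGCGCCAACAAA
Col4a2, chr8:11312555-11312854, plus strand: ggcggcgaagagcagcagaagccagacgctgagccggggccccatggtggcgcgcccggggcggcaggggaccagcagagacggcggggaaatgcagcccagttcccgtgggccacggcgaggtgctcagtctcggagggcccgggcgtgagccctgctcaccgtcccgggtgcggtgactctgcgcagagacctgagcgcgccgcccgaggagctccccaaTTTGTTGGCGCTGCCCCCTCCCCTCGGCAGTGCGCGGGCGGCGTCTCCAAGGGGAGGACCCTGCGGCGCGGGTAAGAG
The start sites that RefSeq gives for these windows lie 21 bases apart, and the windows hold 74% and 73.7% G and C, against a median of 52.7% over 32851 promoter windows. Bgn and Nid1 are shown next because they moved in opposite directions between the 2 tumor models. Capitals mark the GC box GGGCGG, on either strand, which Sp family factors are known to bind.
Bgn, chrX:73483351-73483650, plus strand: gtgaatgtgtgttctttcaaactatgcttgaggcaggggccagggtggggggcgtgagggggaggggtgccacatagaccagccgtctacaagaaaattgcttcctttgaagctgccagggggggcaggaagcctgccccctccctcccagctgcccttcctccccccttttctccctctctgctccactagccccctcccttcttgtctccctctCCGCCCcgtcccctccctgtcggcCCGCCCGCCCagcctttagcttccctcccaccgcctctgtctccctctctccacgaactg
Nid1, chr13:13437352-13437651, plus strand: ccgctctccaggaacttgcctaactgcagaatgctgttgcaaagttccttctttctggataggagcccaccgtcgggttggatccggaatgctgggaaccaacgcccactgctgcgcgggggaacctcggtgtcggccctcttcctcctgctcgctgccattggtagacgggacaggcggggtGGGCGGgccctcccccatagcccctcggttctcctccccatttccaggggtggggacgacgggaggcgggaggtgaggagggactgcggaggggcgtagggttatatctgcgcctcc
Bgn had 3 such boxes, of which the last 2 overlap each other, and Nid1 had 1. Of the 58 members, 42 matched the RefSeq promoters used here, with 47 windows, and 28 of these (59.6%) held GGGCGG, against 35.7% of all 32851. The TATA box TATAAA was in 6 of the 47 (12.8%, against 13.6% of all), and TGANTCA, bound by AP-1, in 1 (2.1%, against 7.8%), both strands counted. These are matches of letters and no evidence of binding.

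The pooled comparison asked which matrix genes were higher in the 6 BrM arrays than in the 8 spleen and bone marrow arrays. Of the 58 members, 13 (22.4%) were statistically significantly higher and 0 lower by limma (adjusted p under 0.01, two-sided, Benjamini-Hochberg over all 45281 probes). Over all probes 3.8% were called higher and 3.12% lower, and over all genes with 1 probe each 4.89% and 4.13%. The 13 were Col18a1, Col6a1, Sparc, Fn1, Col16a1, Col4a1, Dcn, Col4a2, Lamc1, Lama5, Col15a1, Lamb2 and Lum, in order of falling difference. At an unadjusted p under 0.05, 18 were higher and 1 lower. No share of all probes is given at that cutoff here or below, so counts at it cannot be set against the array. The main methods of the study name a two-tailed t-test for its data in general and no test for the arrays. This t-test of the methods with Benjamini-Hochberg adjustment called 13 higher and 1 lower, Col4a4. Its share of all probes called is not given, and the shares above are those of limma. The median log2 difference was 0.25 over members and -0.01 over all probes. In 8 members the 6 BrM arrays all exceeded the 8 others (3.26% of all probes did), and in 0 they all lay below (2.81%).

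**Figure D1:**
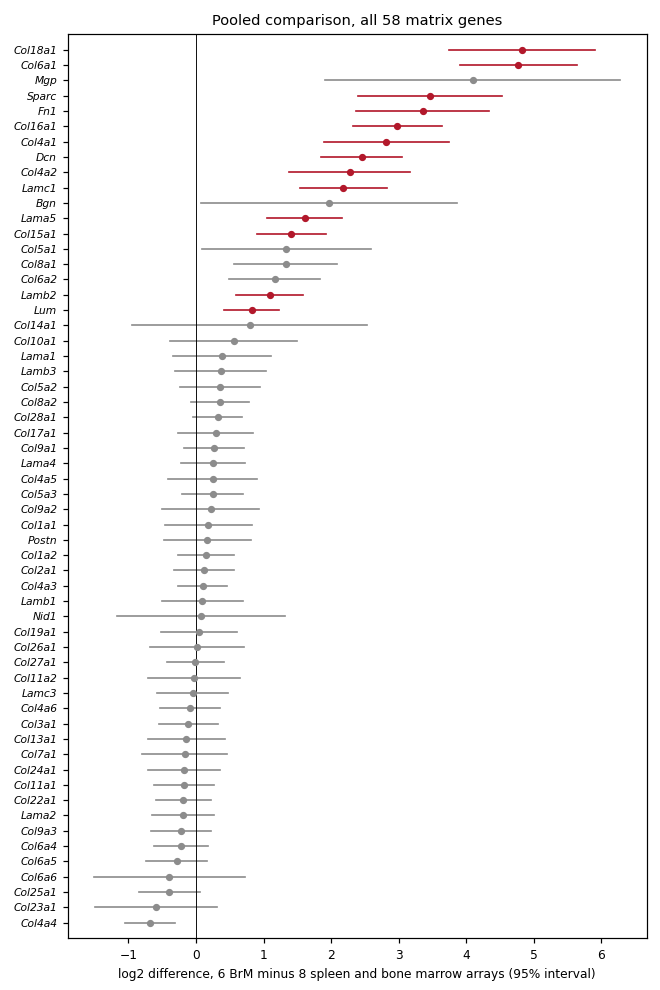
Log2 difference between the means of 6 BrM and 8 spleen and bone marrow arrays (points) with 95% intervals from limma (bars) for all 58 matrix genes. Red marks the 13 genes at an adjusted p under 0.01, and grey the rest. Most grey genes sit near 0, while Mgp (4.10) and Bgn (1.97) have wide intervals and were high in 1 model only.

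Within the PyMT model (4 PyMT-Br against 3 PyMT-S and 1 PyMT-BM), 13 members were higher and 0 lower, against 2.92% and 1.87% of all probes. At an unadjusted p under 0.05 these were 19 and 2. Within the EO771 set (2 EO771-Br against 2 naïve-S and 2 naïve-BM), 9 were higher and 1 lower, against 1.98% and 1.14% of all probes. These 2 comparisons use different arrays and 1 estimate of the spread. Both called Col16a1, Col18a1, Col6a1, Fn1, Lamc1 and Sparc, which is 46.2% of the 13 and 66.7% of the 9. Both naïve-BM arrays carry 1 mouse number in their titles, which naïve-S 1 shares. When the naïve-BM arrays were averaged to 1 sample, with naïve-S 1 still counted as separate, the EO771 comparison had 6 higher and 0 lower. Sparc (adjusted p = 0.0142), Lamc1 (0.0239), Lama5 (0.0127) and the lower call of Col14a1 (0.0117) were then lost, and the members called in both comparisons were 4, Col16a1, Col18a1, Col6a1 and Fn1. The pooled comparison had 12, without Lamb2 (adjusted p = 0.0103). Another 7 were called in the PyMT comparison alone, namely Bgn, Col14a1, Col15a1, Col8a1, Dcn, Lamb2 and Mgp, and 3 in the EO771 comparison alone, namely Col4a1, Col6a2 and Lama5. Being called in 1 model only does not show a difference between models, which was tested separately. The PyMT-Br arrays all exceeded the PyMT controls in 13 members (8.77% of all probes) and all lay below them in 0 (7.2%). Both EO771-Br arrays exceeded the naïve arrays in 18 members (16%) and lay below them in 4 (14.7%).

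**Figure D2:**
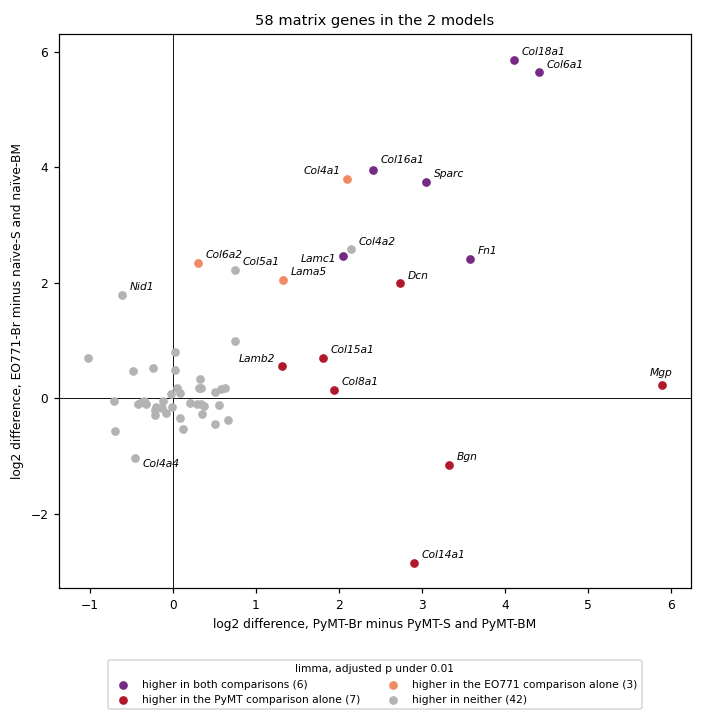
Log2 difference of each of the 58 matrix genes in the PyMT comparison (horizontal axis) and in the EO771 comparison (vertical axis), coloured by the limma call. Col18a1 and Col6a1 lie at the upper right, Mgp, Bgn and Col14a1 at the right near or below 0, and most of the 42 genes called higher in neither lie near the origin.

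The collagen chains called higher in both models were Col6a1, Col18a1 and Col16a1. Col6a1, at chr10:76708792-76726044, encodes a chain of the beaded-filament collagen VI. Its log2 signal was 8.59, 8.81, 6.37 and 8.13 in PyMT-Br 1 to 4, against 3.47, 3.12 and 3.97 in PyMT-S 1 to 3 and 3.69 in PyMT-BM. In EO771-Br it was 9.68 and 9.38, against 3.49 and 3.32 in naïve-S and 4.25 and 4.48 in naïve-BM. No BrM array overlapped a control, and PyMT-Br 3 was the lowest of the BrM. The difference was 4.41 (SE 0.45, adjusted p = 3.845e-05) in the PyMT comparison and 5.64 (SE 0.55, adjusted p = 3.582e-05) in the EO771 comparison. With controls near the array median, the size of these differences is limited by background. A second probe had a pooled difference of 4.18 and the dimmest one 1.30 (adjusted p = 0.0455).

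Col6a2, whose chain assembles with that of Col6a1, was called higher in the EO771 comparison (2.34, SE 0.30, adjusted p = 2.984e-04), with 6.52 and 5.91 in EO771-Br and 3.79 to 3.97 in the naïve arrays. In PyMT-Br it was 4.76 to 5.63, overlapping the PyMT controls at 4.47 to 5.42, and the second probe was not called in either (adjusted p = 0.0912 in EO771). The chains Col6a4, Col6a5 and Col6a6 were at or below 4.06 in every array, and their pooled differences were -0.40 to -0.22.

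Col18a1, at chr10:77052178-77166530, encodes collagen XVIII, a basement membrane proteoglycan whose C-terminal fragment is endostatin. Its signal was 9.85, 8.70, 7.03 and 8.76 in PyMT-Br 1 to 4, against 3.87, 3.45 and 6.65 in PyMT-S 1 to 3 and 3.94 in PyMT-BM. EO771-Br had 9.61 and 9.49, against 3.30 to 4.34 in the 4 naïve arrays. The groups did not overlap, but PyMT-S 3 stood well above the other controls and just below PyMT-Br 3. The pooled difference was 4.82 (SE 0.51, adjusted p = 1.094e-05). It was 4.11 for PyMT and 5.86 for EO771. The 2 dimmer probes gave 0.87 (adjusted p = 0.0101) and 0.60 (adjusted p = 0.246), neither called. Collagen XV, its closest relative, is encoded by Col15a1, which was 5.59 to 6.05 in PyMT-Br, against 3.77 to 4.35 in the PyMT controls (1.81, SE 0.25, adjusted p = 4.806e-04). In EO771-Br it was 4.41 and 5.37, against 3.78 to 4.66 in the naïve arrays, which overlap.

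Col16a1, at chr4:130047817-130099277, encodes collagen XVI, a fibril-associated chain. It had 7.41, 7.07, 5.73 and 6.74 in PyMT-Br 1 to 4, against 3.98 to 4.72 in the PyMT controls. EO771-Br had 8.08 and 7.78, against 3.59 to 4.40 in naïve arrays, so BrM and controls were apart in both models. The pooled difference was 2.98 (SE 0.31, adjusted p = 9.259e-06).

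Of the collagen IV chains, Col4a1 and Col4a2 were called higher in the pooled comparison. Col4a1 was 7.93, 8.11, 6.38 and 8.52 in PyMT-Br 1 to 4, against 5.74, 4.35 and 7.29 in PyMT-S 1 to 3 and 5.19 in PyMT-BM. EO771-Br had 8.66 and 8.33, against 4.62 to 4.76 in the naïve arrays. Its neighbor Col4a2 had 5.95, 6.71, 5.26 and 6.88 in PyMT-Br 1 to 4, against 4.34, 2.21 and 5.85 in PyMT-S 1 to 3 and 3.80 in PyMT-BM. In EO771-Br Col4a2 was 6.84 and 6.62, against 3.79 to 4.34 in the naïve arrays. For both genes PyMT-S 3 lay above PyMT-Br 3, so the PyMT groups overlapped, and the EO771 groups did not. Pooled differences were 2.82 for Col4a1 (SE 0.44, adjusted p = 3.715e-04) and 2.27 for Col4a2 (SE 0.42, adjusted p = 0.00165). In the EO771 comparison alone Col4a1 was called (3.79, adjusted p = 0.00265) and Col4a2 was not (2.58, adjusted p = 0.0437). The PyMT values of 2.09 and 2.15 were not called, and without PyMT-S 3 both were. The chains Col4a3, Col4a4, Col4a5 and Col4a6 stayed between 2.83 and 5.16 in all arrays. Of these Col4a4 had a pooled difference of -0.68 and was not called.

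Of the 9 laminin chains 3 were called higher in the pooled comparison: Lamc1, the γ1 chain found in most laminin trimers, Lama5, the α5 chain of vessel and epithelial basement membrane, and Lamb2, the β2 chain. Lamc1 had 7.24, 7.62, 6.50 and 7.06 in PyMT-Br 1 to 4, against 4.12 to 5.99 in the PyMT controls, and 7.90 and 7.21 in EO771-Br, against 4.62 to 5.53 in the naïve arrays. The 6 BrM arrays did not overlap the controls, and the pooled difference was 2.18 (SE 0.30, adjusted p = 1.434e-04), with 2.74 for the second probe. Lama5 had 5.60, 6.02, 4.45 and 5.58 in PyMT-Br 1 to 4, against 3.78 to 4.60 in the PyMT controls, and 5.94 and 5.88 in EO771-Br, against 3.15 to 4.17 in naïve arrays (pooled difference 1.61, SE 0.26, adjusted p = 5.117e-04). Here PyMT-Br 3 lay below PyMT-S 3. Lamb2 was 4.84 to 5.75 in PyMT-Br, against 3.75 to 4.25 in the PyMT controls (1.31, SE 0.23, adjusted p = 0.00215). In EO771-Br it was 4.31 and 4.39, against 3.55 to 4.11 in the naïve arrays (0.55, adjusted p = 0.337). The other 6 laminin chains, Lama1, Lama2, Lama4, Lamb1, Lamb3 and Lamc3, were below 6 in every array, with pooled differences of -0.19 to 0.38.

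**Figure D3:**
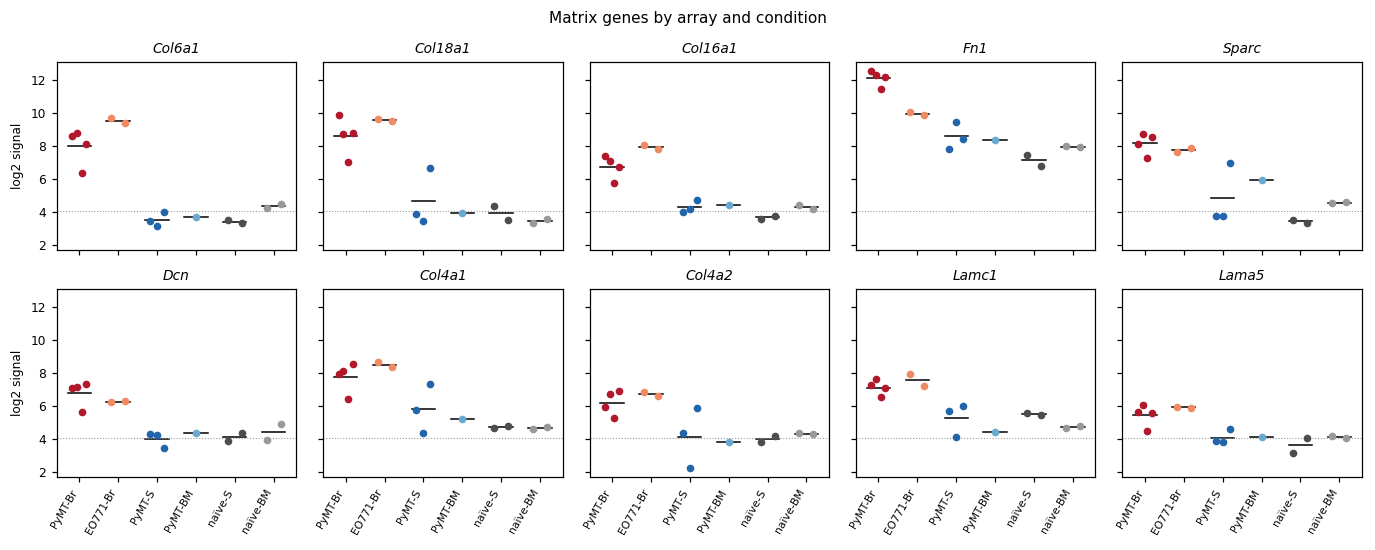
Log2 signal of 10 matrix genes in each of the 14 arrays (points, replicates from left to right) with the mean of each condition (bar). The dotted line is the array median of 4.06. BrM points lie above the control points in Col6a1, Col16a1, Dcn and Lamc1, while PyMT-S 3 reaches the lowest BrM array in Col4a1, Col4a2 and Lama5.

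Fibronectin and several secreted matrix binders were also called higher. Fn1, at chr1:71585473-71653280, encodes fibronectin, which cells assemble into fibrils through integrins. It had 12.56, 12.27, 11.44 and 12.17 in PyMT-Br 1 to 4, against 7.81, 9.47 and 8.44 in PyMT-S 1 to 3 and 8.37 in PyMT-BM. EO771-Br had 10.04 and 9.87, against 7.47 and 6.79 in naïve-S and 7.97 and 7.95 in naïve-BM. Each BrM group was above its controls, and the highest control was PyMT-S 2. The differences were 3.58 (SE 0.36, adjusted p = 3.484e-05) in the PyMT comparison and 2.41 (SE 0.44, adjusted p = 0.00426) in the EO771 comparison. Of its 3 dimmer probes 2 were called in the pooled comparison (1.88 and 2.26), and 1 was not (-0.08).

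Sparc, at chr11:55394159-55420080, encodes a collagen-binding glycoprotein of remodelling tissue. Its signal was 8.10, 8.73, 7.28 and 8.53 in PyMT-Br 1 to 4, against 3.78, 3.75 and 6.96 in PyMT-S 1 to 3 and 5.96 in PyMT-BM. EO771-Br had 7.61 and 7.87, against 3.36 to 4.58 in the naïve arrays. PyMT-S 3 again came closest to the BrM. The pooled difference was 3.46 (SE 0.50, adjusted p = 1.963e-04), with 2.82 for the second probe and 0.26 for the dimmest.

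The small leucine-rich proteoglycans, which bind collagen fibrils and growth factors, are Dcn (decorin), Bgn (biglycan) and Lum (lumican). Dcn had 7.07, 7.14, 5.61 and 7.34 in PyMT-Br 1 to 4, against 3.42 to 4.32 in the PyMT controls, and 6.20 and 6.30 in EO771-Br, against 3.85 to 4.92 in naïve arrays. The groups were apart in both models, with a pooled difference of 2.45 (SE 0.28, adjusted p = 2.532e-05). Its EO771 difference of 1.99 missed the threshold (adjusted p = 0.0162), and the 3 dimmer probes gave pooled differences of 0.85, -0.32 and -0.58, of which the first was called. Lum was 3.87 to 4.56 in PyMT-Br and 4.44 and 4.61 in EO771-Br, close to the array median, against 2.96 to 3.91 in the controls (pooled 0.82, SE 0.19, adjusted p = 0.00847). The Lum ranges overlapped, and the second probe had 0.24 (adjusted p = 0.578).

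The major fibrillar chains were not called. Col1a1, Col1a2 and Col3a1, which encode collagens I and III and are abundant products of activated fibroblasts, stayed between 2.56 and 4.80 in all 14 arrays. Their pooled differences of -0.12 to 0.18 were not called, and Postn, another fibroblast product, had 0.17. Since no condition had a high signal for these probes, the series does not show that they can report the RNA. Over all 9 fibrillar chains other than Col5a1 and Col5a3 the highest signal was 5.46. Col5a1, which nucleates fibrils, was 6.72 to 8.48 in PyMT-Br and 8.69 and 8.76 in EO771-Br, against 7.82 and 7.97 in naïve-BM, 7.99 in PyMT-BM, 5.54 and 4.68 in naïve-S, and 4.85, 8.04 and 7.46 in PyMT-S 1 to 3. The BrM and bone marrow ranges overlapped and 3 of 5 spleen libraries lay below both, so the pooled difference of 1.34 was not called (adjusted p = 0.182).

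A few members differed between the PyMT and EO771 tumors. Between 4 PyMT-Br and 2 EO771-Br arrays 3 members were called higher in PyMT-Br (Mgp, Bgn and Col14a1) and 1 lower (Nid1), against 0.583% and 1% of all probes. The difference between the PyMT and the EO771 comparison, which sets each tumor against its own controls, was called for 2 members in the positive direction (Col14a1 and Mgp, against 0.0398% of all probes) and for 0 in the negative (0.0905%). At an unadjusted p under 0.05 these were 5 and 4, again without a share of all probes at that cutoff.

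Mgp, at chr6:136872435-136875823, encodes matrix Gla protein, an inhibitor of calcification made by vessel and cartilage cells. It had 10.11, 11.85, 10.16 and 11.63 in PyMT-Br 1 to 4, against 4.36 and 5.09 in EO771-Br. Controls were 4.24 to 5.21 in PyMT-S, 5.89 in PyMT-BM, 3.93 and 3.73 in naïve-S, and 5.15 and 5.16 in naïve-BM. PyMT-Br stood apart from all other arrays, and EO771-Br lay within the controls. PyMT-Br exceeded EO771-Br by 6.22 (SE 0.50, adjusted p = 2.269e-04). EO771-Br lay near the array median, so background limits the size of this difference. The difference between the comparisons was 5.67 (SE 0.78, adjusted p = 0.00648), and with the naïve-BM arrays averaged it was not called (adjusted p = 0.0142). Mgp had 1 probe, so no second one bears on it.

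Bgn had 9.02, 10.15, 8.81 and 9.95 in PyMT-Br 1 to 4, against 4.34 and 4.04 in EO771-Br. Its controls were 5.32, 5.48 and 6.57 in PyMT-S 1 to 3, 7.25 in PyMT-BM, and 4.68 to 5.79 in the naïve arrays, so both EO771-Br arrays were the lowest of the 14. PyMT-Br exceeded EO771-Br by 5.29 (SE 0.45, adjusted p = 2.493e-04), and the difference between the comparisons was 4.49 and narrowly missed the threshold (adjusted p = 0.0102).

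Col14a1, at chr15:55307644-55520803, encodes collagen XIV, a fibril-associated chain. It was 8.40, 7.71, 6.97 and 7.54 in PyMT-Br 1 to 4, against 3.14 and 2.98 in EO771-Br. Controls were 3.76, 4.51 and 4.77 in PyMT-S 1 to 3, 5.95 in PyMT-BM, 5.81 and 7.14 in naïve-S, and 5.10 and 5.59 in naïve-BM. PyMT-Br was thus above its controls (2.91, SE 0.48, adjusted p = 0.00162) and EO771-Br below the naïve arrays (-2.85, SE 0.59, adjusted p = 0.00913). PyMT-Br exceeded EO771-Br by 4.59 (SE 0.45, adjusted p = 3.738e-04), and the difference between the comparisons was 5.76 (SE 0.76, adjusted p = 0.00556). The second probe had 2.20 in the PyMT comparison, -0.61 (adjusted p = 0.568) in the EO771 comparison and 2.18 (adjusted p = 0.00669) between the tumors. PyMT-S lay below naïve-S in every array, which adds to the difference between the comparisons.

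Nid1, which encodes nidogen 1, the linker of laminin and collagen IV, went the other way. It had 3.92, 2.87, 2.81 and 4.05 in PyMT-Br 1 to 4, against 6.55 and 6.38 in EO771-Br, while the controls were 3.42 to 4.63 in PyMT mice, 5.46 and 5.35 in naïve-S, and 3.82 and 4.10 in naïve-BM. EO771-Br was the highest of the conditions and PyMT-Br lay below the array median. The difference between the tumors was -3.06 (SE 0.43, adjusted p = 0.00275), and that between the comparisons, -2.40, was not called (adjusted p = 0.243). The second probe had -1.18 between the tumors (adjusted p = 0.238).

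Col8a1, a short-chain collagen of vessel walls, was 5.89, 6.30, 4.61 and 5.86 in PyMT-Br 1 to 4, against 3.35 to 4.41 in the PyMT controls (1.94, SE 0.34, adjusted p = 0.00233). In EO771-Br it was 3.90 and 4.04, within the naïve range of 3.44 to 4.15. PyMT-Br minus EO771-Br was 1.70 for Col8a1 (95% interval 0.85 to 2.54, adjusted p = 0.0256), and for Fn1 it was 2.15 (95% interval 1.22 to 3.08, adjusted p = 0.0139), and neither was called. For Col6a1 it was -1.55 (95% interval -2.74 to -0.37) and for Col18a1 -0.97 (95% interval -2.79 to 0.86), so a sizeable difference in either is compatible with these arrays.

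**Figure D4:**
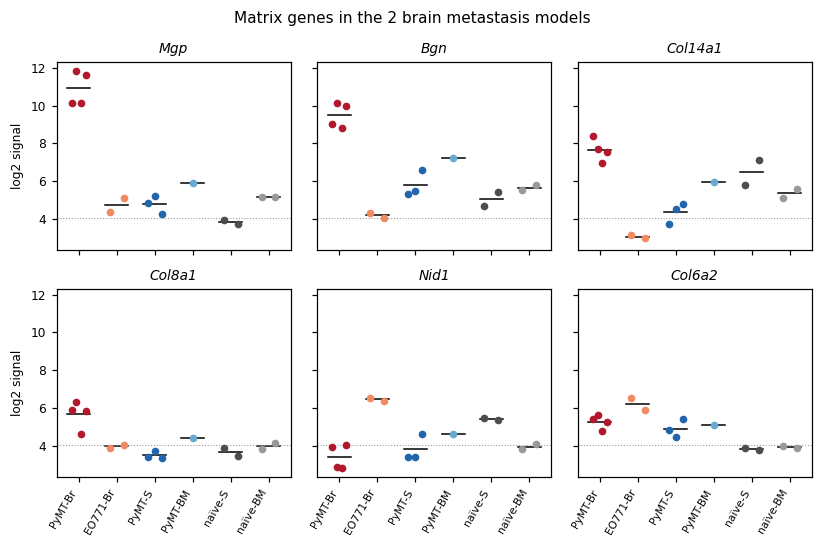
Log2 signal of 6 matrix genes in each of the 14 arrays (points, replicates from left to right) with the mean of each condition (bar) and the array median of 4.06 (dotted line). The mean of PyMT-Br is the highest in Mgp, Bgn and Col14a1, and the mean of EO771-Br is the highest in Nid1. In Col14a1 the points overlap, with naïve-S 2 (7.14) above PyMT-Br 3 (6.97).

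How far single arrays carried these counts was followed by leaving out each in turn. In the pooled comparison the count of members called higher ran from 11 to 14, with 11 to 13 of the reported 13 among them. The count of 14, without EO771-Br 1, held Col8a1 and Mgp and lacked Lum. The reported calls that could be lost were Lum (kept only without PyMT-Br 3, PyMT-BM or naïve-BM 2, adjusted p up to 0.0247) and Lamb2 (without PyMT-Br 1, 2 or 4 or either naïve-BM array, up to 0.0149). Without PyMT-S 2 the pooled count was 12 and the PyMT count 11, where Lamc1 and Sparc were lost, and without PyMT-S 3 they were 13 and 15. Without both libraries the PyMT count was 10. In the PyMT comparison Sparc was lost in 7 refits (without PyMT-Br 1, 2 or 4, EO771-Br 1 or 2, or PyMT-S 1 or 2, adjusted p up to 0.0250) and Lamc1 in 5 (without PyMT-Br 1, 2 or 4, PyMT-S 2 or PyMT-BM, up to 0.0213). The EO771 comparison was the most dependent, with 2 members higher without EO771-Br 1 (Col16a1 and Col6a1), 4 without EO771-Br 2 (with Col18a1 and Col6a2), and 5 without naïve-S 1 (with Col4a1 as well). There Sparc kept its call only when a PyMT-S array was left out (adjusted p up to 0.0973 otherwise). Lama5 kept it only without a PyMT-S array or PyMT-Br 2 or 3 (up to 0.0859), and Lamc1 only without a PyMT-S array, PyMT-Br 3 or PyMT-BM (up to 0.146). The lower call of Col14a1 was kept only without PyMT-Br 1, PyMT-S 1, PyMT-BM or naïve-BM 1 (up to 0.0969).

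Between the models the calls of Mgp and Col14a1 in the difference of comparisons were lost in 10 and 8 of the 14 refits (adjusted p up to 0.0634 and 0.0428). Without PyMT-Br 2 or 4, EO771-Br 1 or 2, PyMT-S 2 or 3, naïve-S 1 or naïve-BM 2 both were lost and 0 members were called, and without PyMT-S 1 or naïve-BM 1 Mgp alone was lost. Between the tumors themselves, Mgp and Bgn remained called in every refit, Col14a1 was lost without EO771-Br 1 (adjusted p = 0.0108), and Nid1 without either EO771-Br array (up to 0.0490). One array was often the lowest of its group: of the 18 members called higher in any of these BrM comparisons, PyMT-Br 3 was the lowest PyMT-Br array in 16. Of the same 18, PyMT-S 3 was the highest PyMT control in 10 and PyMT-BM in 7. Such positions were not counted over all probes, so they are not shown to be particular to the matrix genes.

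Among the controls 0 members differed at the threshold. For naïve-S against naïve-BM limma called 0 members in either direction (0% of all probes), with 3 higher and 4 lower at an unadjusted p under 0.05. The largest were Col23a1, a transmembrane collagen, at 5.90 and 4.70 in naïve-S and 2.42 and 2.98 in naïve-BM (2.60, SE 0.45, adjusted p = 0.0856), and Col5a1 at -2.79 (SE 0.84, adjusted p = 0.151). Col23a1 became called without PyMT-S 2, whose array enters the estimate of the spread. For PyMT-S against naïve-S 0 members were called (0.0287% and 0.0861% of all probes), with 7 higher and 4 lower at an unadjusted p under 0.05. Col14a1 had -2.13 there (adjusted p = 0.0399) and Col10a1, the collagen of growth plate cartilage, 2.34 (adjusted p = 0.0156), with 3.11 to 4.06 in PyMT-S and 1.23 and 1.27 in naïve-S, all at or below the array median.

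In all, 19 of the 58 members were called in at least 1 of the 7 comparisons and 39 in none. Of those 39, 37 stayed below a signal of 6 in every array, the others being Col5a1 and Col7a1. Their pooled differences ran from -0.68 to 1.34.

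Of 27 genes that make and modify collagen, 10 were called higher, 0 lower and 17 not at all in the pooled comparison (over all genes 4.89% were higher and 4.13% lower), with a median of 0.62 over the list and -0.01 over all probes. Serpinh1, the chaperone of procollagen HSP47, was 7.30 to 9.11 in PyMT-Br and 9.87 and 10.02 in EO771-Br, against 4.20 to 6.47 in the PyMT controls and 3.92 to 4.73 in the naïve arrays (4.29, SE 0.45, adjusted p = 1.094e-05). Pcolce, which enhances procollagen cleavage, had 3.21 (SE 0.42) and Bmp1, the protease that cleaves it, 2.77 (SE 0.43). The other 7 called were P3h3, P4ha1, P4ha2, Plod1 and Plod3, which hydroxylate the chains, and Crtap and Ppib of the prolyl 3-hydroxylase complex.

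Of 42 other matrix proteins 9 were higher and 0 lower in the pooled comparison, against the same 4.89% and 4.13% of all genes. Ecm1, extracellular matrix protein 1, was 10.65 to 12.45 in the BrM, against 6.36 to 8.91 in the controls (4.78, SE 0.37, adjusted p = 3.331e-07). Thbs1, thrombospondin 1, had 8.79, 6.39, 6.17 and 7.45 in PyMT-Br 1 to 4 and 10.79 and 10.38 in EO771-Br, against 3.40 to 5.09 in the controls (4.14, SE 0.64), and Thbs2 had 2.86 (SE 0.61). Hspg2, the basement membrane proteoglycan perlecan, had 2.29 (SE 0.45). Between the tumors Thbs1 (-3.38, SE 0.62, adjusted p = 0.00979) and Vcan, versican (-2.88, SE 0.35, adjusted p = 0.00149), were lower in PyMT-Br. Of 27 matrix receptors and genes of collagen uptake 9 were higher and 0 lower in the pooled comparison, against 4.89% and 4.13% of all genes. The largest were Itga3, a laminin-binding integrin chain (2.87, SE 0.43), Mfge8, an integrin ligand of phagocytes (2.78, SE 0.44), and Sdc4, a syndecan (2.64, SE 0.50).

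Markers of cells other than myeloid cells were read beside these results, again against shares of all genes called higher and lower of 4.89% and 4.13% (pooled), 3.77% and 2.42% (PyMT) and 2.59% and 1.68% (EO771). Of 17 epithelial and carcinoma markers 3 were higher in BrM in the pooled comparison, Wfdc2 (4.46, SE 0.42), the keratin Krt8 (3.10, SE 0.33) and Cdh1, E-cadherin (1.46, SE 0.31), and the list mean was 4.24 to 5.13 in BrM, against 3.56 to 4.09 in controls. In the PyMT comparison 5 were higher, and for EO771 2 were. Wfdc2 itself was 6.05 to 8.45 in PyMT-Br and 8.54 and 8.88 in EO771-Br, against 2.53 to 4.16 in controls, and Epcam was 2.53 to 3.12 in BrM, below the array median. Between the tumors 3 of the 17 were higher in PyMT-Br, Krt14, Krt18 and Cdh1 (2.54, 2.83 and 1.63), and 0 lower. Over all genes 0.819% were higher and 1.12% lower there. Krt8 was 6.20 to 8.50 in PyMT-Br and 7.65 and 7.34 in EO771-Br. Of 6 genes of sort and leukocyte identity 0 were higher and 1 lower, the pan-leukocyte gene Cd53 (-2.45, adjusted p = 0.0081 by limma). PyMT-Br 3 was lowest of the PyMT-Br arrays in 6 of the 17 epithelial and carcinoma markers. Krt8, Krt14, Krt18, Wfdc2 and Epcam were among these 6, and Cdh1 was not. It was also lowest in 16 of the 27 genes that make and modify collagen and 10 of 20 fibroblast and pericyte markers. For endothelial markers this was 7 of 20, and for neutrophil markers 2 of 14. These positions were not counted over all probes.

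Of 20 fibroblast and pericyte markers 2 were higher, Pdgfra (2.68, SE 0.49) and Twist1 (1.16, SE 0.23), and 1 lower, Pi16 (-3.60, SE 0.30). In the EO771 comparison 4 were higher, Pdgfra (4.24), Twist2 (4.20), Dpt (2.21) and Twist1 (1.89), and 1 was lower. In the PyMT comparison 1 was higher and 1 lower. Between the tumors Dpt was lower in PyMT-Br than in EO771-Br (-1.77). Pdgfra was 3.96 to 5.83 in PyMT-Br and 7.97 and 7.61 in EO771-Br, against 2.92 to 4.00 in controls, and the list mean was 4.33 to 4.86 in BrM, against 4.04 to 4.86 in controls. The single lower call among 20 in the pooled comparison is near the share of all genes, as are the single calls in the PyMT comparison. Of 20 endothelial markers 1 was higher in the pooled comparison, Eng (1.46, SE 0.27), also near that share, with a list mean of 4.69 to 5.81 in BrM, against 4.94 to 6.09 in controls. In the EO771 comparison 2 were higher. Ramp2, an adrenomedullin receptor subunit, was 8.44 and 8.24 in EO771-Br, against 4.93 to 5.10 in the naïve arrays (3.34, SE 0.57, adjusted p = 0.00257). Flt1, a VEGF receptor, was 8.93 and 9.61, against 6.19 to 6.43 (2.99, SE 0.62, adjusted p = 0.009). In the PyMT comparison limma called 0 endothelial markers, with 1 higher and 6 lower at an unadjusted p under 0.05. PyMT-S 3 was the highest PyMT control in 12 of the 20, a position not counted over all probes. It was also the highest PyMT control for Col18a1, Col4a1, Col4a2 and Sparc. Plvap, of fenestrated vessels, was 8.63 in PyMT-S 3, 4.89 to 7.27 in the other PyMT controls and 5.08 to 6.13 in PyMT-Br. Cldn5, of tight junctions, was 7.25 in PyMT-S 3, 4.06 to 6.02 in the other PyMT controls and 3.90 to 7.65 in PyMT-Br. Of 17 brain cell markers 2 were higher, Gja1 (2.31) and Aldoc (2.18), and 1 lower, Mbp (-1.07), and 0 of 13 marrow stroma and bone markers were called by limma (0 higher and 1 lower at an unadjusted p under 0.05). Of 8 platelet markers Pf4 was higher (3.13) and Gp1bb lower (-2.63), and the mean of that list was 6.58 in PyMT-S 2 and 4.26 to 5.08 in the other spleens, against 7.08 to 7.85 in bone marrow. The part of RNA from such cells in the matrix results was not tested.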

How the data were processed

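GFP+CD11b+ cells were sorted from tumors, spleens and bone marrow, and their RNA was hybridised to Illumina MouseWG-6 v2 arrays. Each deposited value is a log2 signal that the authors had background-corrected and quantile normalized (GenomeStudio 2011.1 and limma are named in the submitters' processing notes). The background method is not given in the sources used here, and base 2 was inferred because the values span -1.68 to 14.6. No detection p-value was used. Gene symbols came from the platform annotation: 34885 of 45281 probes had 1 symbol, 18 several and 10378 none.

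Tests used limma 3.58.1 in R 4.3.3, two-sided, without a mean-variance trend, Benjamini-Hochberg adjusted over all probes, with a threshold of 0.01 on the adjusted p. For the pooled comparison 2 groups were fitted. The PyMT and EO771 comparisons and their difference came from a fit of 4 groups, and PyMT-Br against EO771-Br, naïve-S against naïve-BM and PyMT-S against naïve-S from one of 6 conditions, always with all 14 arrays. On simulated data of this layout, log2 differences of 1, 2 and 4 were recovered in 37.3%, 74.6% and 98.5% of changed probes in the pooled comparison. They were recovered in 4.48%, 56.7% and 95.5% in the PyMT, and 0%, 65.7% and 90.9% in the EO771 comparison (45281 probes). Apart from the planted changes, the simulated arrays had no differences between tissues or models, only the spread within the 6 conditions. The fits of 2 and 4 groups count such differences as spread, so recovery in the real data can be lower.

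Members and lists were chosen with earlier results of these data known. Named were members called in any comparison, the genes listed by symbol, the chains of collagens I, III, IV, VI and XVIII and the laminins, and from each other list up to 3 called genes of largest change in the pooled comparison. Col5a1, Col23a1, Col10a1, the 7 further genes of collagen synthesis, Hspg2, Vcan, Twist2, Dpt, Ramp2, Flt1, Plvap, Cldn5, Epcam, Krt14, Krt18, Cd53 and Cd163 were named outside that rule, after their values were seen. Alternatives were a variance trend, a filter on dim probes, all probes of a gene averaged, centring on reference genes, another threshold, blocks by mouse or number, other control sets, the t-test of the methods and leaving out each array. Added after the data were seen were control sets without PyMT-S 2 or PyMT-S 3 and single bone marrow controls.

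Whether replicates of a group are separate mice follows from the codes in the titles for most arrays. Both naïve-BM arrays carry codes of 1 stem, and naïve-S 1 carries the same mouse number. EO771-Br 2 carries a pair of numbers. P-values may therefore in part measure technical spread or spread within 1 mouse. Positions and promoters are those of RefSeq on GRCm38.p6, and all 58 members matched its gene table. Python 3 with matplotlib drew the figures.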

Additional observations from a re-analysis of the deposited data

Results flagged for a closer look

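Among 58 groups of 4 PyMT-Br arrays, 1 per member, 2 held an array far from the others, where chance gives about 1 in 20. For Col27a1, a fibrillar collagen chain, PyMT-Br 4 had a log2 signal of 4.90 and the next array 4.27. For Dcn, PyMT-Br 3 had 5.61 and the next array 7.07.

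The PyMT and EO771 comparisons differed for 2 members by limma's test of the difference itself. For Col14a1 the difference was 5.76 (adjusted p = 0.00556), from 2.91 for PyMT and -2.85 for EO771. For Mgp it was 5.67 (adjusted p = 0.00648), from 5.89 for PyMT and 0.23 for EO771. Leaving out single arrays ended these calls, as given in the report, with an adjusted p of up to 0.0428 for Col14a1 and 0.0634 for Mgp, and averaging the naïve-BM arrays ended that of Mgp (adjusted p = 0.0142).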

How the results depend on the processing

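Over all settings 117 counts of called members stayed within 1.5 times the reported count and 19 moved beyond it. Counts of 0 that stayed at 0 are among the 117, so these totals do not measure how stable the counts above 0 were. Of the values of single members 626 kept direction and call, 58 lost a call, 20 gained one and 11 turned direction. Arrays left out in turn are not counted here. Members called higher were 11 to 14 in the pooled, 11 to 15 in the PyMT, 2 to 10 in the EO771 comparison, 0 to 3 in the difference between models, 2 to 4 for PyMT-Br against EO771-Br, 0 to 1 for naïve-S against naïve-BM and 0 for PyMT-S against naïve-S when each array was left out. Members called lower were 0 to 1 in the pooled comparison, the EO771 comparison and PyMT-Br against EO771-Br, and 0 elsewhere.

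With probes of a gene averaged, 0 members were lower in the EO771 comparison and 0 in PyMT-Br against EO771-Br. With a filter on dim probes 5 were higher in PyMT-Br than in EO771-Br, with Fn1 and Col26a1 added. At an adjusted p under 0.05, 6 were higher there, 2 were lower in the EO771 comparison, 1 was lower in the pooled comparison and 1 in the difference between models, and 1 was higher and 1 lower in PyMT-S against naïve-S. Centring on reference genes and the t-test of the methods, adjusted or at an unadjusted p under 0.05, each gave 1 lower in the pooled comparison, Col4a4. Averaging the naïve-BM arrays, which share 1 mouse number, left 6 higher (Lama5, Lamc1 and Sparc lost) and 0 lower in the EO771 comparison, 12 higher in the pooled comparison (Lamb2 lost) and 1 higher in the difference between models (Mgp lost). With its own spleens only as control, the EO771 comparison had 5 higher; with its own bone marrow only, 0 lower. With the single PyMT-BM array as control the PyMT comparison had 3 higher, a test that assumes this array varies like the other conditions. Spleens without PyMT-S 2 as control gave 1 lower in the pooled comparison, Col23a1. The cause was not tested.

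Of the 10 reference genes 1 was called higher in the pooled and 1 in the PyMT comparison, and 0 lower in either. Shares of all genes higher there were 4.89% and 3.77%. The mean over the 10 was 10.28 to 10.40 in BrM, against 9.82 to 10.24 in controls. Centring on the reference genes moved the median of all probes by -0.32 (pooled), -0.41 (PyMT) and -0.24 (EO771). All-probe calls were then 826 higher and 2939 lower in the pooled comparison (1719 and 1413 as reported), 626 and 3097 in the PyMT (1322 and 845) and 619 and 988 in the EO771 comparison (895 and 518), while 11, 10 and 6 members stayed higher.

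Directions turned only for differences that were not called. Nid1 in the pooled comparison was -0.37 with probes averaged, -0.24 when centred, -0.0283 against spleens, -0.29 against spleens without PyMT-S 2 and between -0.35 and 0.40 without single arrays. Postn in the pooled comparison was -0.13 with probes averaged, -0.15 when centred and between -0.029 (without naïve-S 1) and 0.30 without single arrays, and in the PyMT comparison 0.0639 without PyMT-S 2 and 3 and 0.46 against PyMT-BM. Col6a2 in the PyMT comparison was -0.11 when centred. Mgp in the EO771 comparison was -0.0106 when centred, -0.43 against naïve-BM, and between -0.14 (without EO771-Br 2) and 0.59 without single arrays.

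Title numbers are not mice: the codes in the titles tie 3 PyMT-Br arrays to their own controls. Deviations of arrays with 1 code correlated at -0.04 to 0.01 and those with 1 number at -0.09 to 0.05. The 2 naïve-BM arrays were not set against each other, and PyMT-BM was left out. In groups of 2 the deviations mirror each other, so these ranges cannot show that arrays of 1 mouse are independent. The replicate block by code (correlation 0.0247) added Dcn in the EO771 comparison (10 higher) and Bgn in the difference between models (3 higher). The replicate block by number gave 12 higher in the pooled and 8 in the EO771 comparison, where 0 were then lower. The block changed no other count of calls. Mouse set as a fixed term added Mgp to the pooled calls (14 higher). Without detection p-values, signal over background is not known per probe, and differences near the median signal of 4.06 are the least certain.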
